A study of Homo sapiens with 6 samples.

Results

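The genes described here are 57 splicing regulators, chosen by symbol from a fixed list and found among the 61860 gene rows of the deposited count table of 786-O cells. They are 12 SR proteins, 4 SR-like proteins, 18 hnRNPs, 3 polypyrimidine tract-binding (PTB) proteins, 10 other sequence-specific regulators, 4 RBM proteins and 6 kinases of SR proteins. 786-O is an established human cell line from a clear cell renal carcinoma. One group stably expressed a control shRNA and the other an shRNA directed at METTL3, the catalytic subunit of the enzyme that places N6-methyladenosine (m6A) on mRNA, with 3 libraries each. The knockdown columns all carry the same number, which no label explains, no untransduced cells are among the samples, and no label states separate cultures. Every p-value therefore rests on variation among these libraries alone, which may be technical. The libraries are called control A to C and knockdown A to C, after the letters of the deposited columns.

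SR proteins bind exonic enhancers through RNA recognition motifs and recruit the spliceosome through domains rich in arginine and serine, whereas many hnRNPs bind silencers and oppose exon inclusion. PTB, MBNL, CELF, QKI and RBFOX proteins act at positions around an exon that decide whether it is kept or skipped, and the CLK and SRPK kinases phosphorylate SR proteins and set where in the nucleus they reside. Many of these genes control their own level by including a poison exon that sends the transcript to nonsense-mediated decay. Several hnRNPs have been linked to m6A, either as proteins that bind near the mark or as proteins whose sites become accessible when the mark opens a hairpin. The comparison of the groups asks how the RNA levels of these regulators differed when METTL3 was reduced. m6A, protein and splicing were not measured here.

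Counts for METTL3 itself were 3874, 4060 and 4141 in the controls against 1064, 956 and 1145 in the knockdown libraries. As CPM, a count divided by its library's total after TMM adjustment and scaled up, this was 37.6 ± 0.43 in the controls and 10.8 ± 0.87 in the knockdown (SD, n = 3 each). The log2 fold change was −1.80 (SE 0.083; edgeR adjusted p = 1.45e-07, from its quasi-likelihood test). Exons of METTL3 overlap those of TOX4 on the opposite strand, and TOX4 had a log2 difference of 0.127 that did not pass the same test. Library totals lay between 100534896 and 103624456 counts. Mitochondrial transcripts took 4.46% ± 0.266 of the counts in the controls and 8.11% ± 0.366 in the knockdown (SD, n = 3 each). The 57 splicing regulators took 0.922% ± 0.00833 of the counts in the controls and 0.801% ± 0.0390 in the knockdown. With the mitochondrial transcripts left out of the fit, 15 of the regulators were lower and 6 higher, against 15 and 5 with them in. In bulk RNA, fewer cells of a kind and less RNA per cell cannot be told apart. Kidney and 786-O markers were present, with PAX8 at 73.2 to 108.8 FPKM (fragments scaled by transcript length and library total) and VIM at 810.5 to 1992 FPKM across the 6 libraries. Both were higher in the knockdown by edgeR, PAX8 by 0.32 and VIM by 1.02 on the log2 scale, and the part of this difference in the results was not tested. The rise was not common to such markers, as PAX2, KRT8, KRT18 and CDH2 did not pass, at −0.195, 0.014, −0.047 and 0.13. EPCAM lay at only 0.39 to 0.61 FPKM. However, CDH1, an epithelial cadherin, had at most 11 counts in a library. The leukocyte genes PTPRC and CD3E reached at most 4 counts per library, and CD14, lower by edgeR, at most 30. The fibroblast genes PDGFRA and DCN had at most 2, and LUM, lower by edgeR, at most 53. The endothelial genes PECAM1, CDH5 and VWF had at most 5, and the erythroid gene HBB had none.

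Of the 57 regulators, 55 entered the test. SRSF12 reached no more than 2 counts in any library and MBNL3 had 5 to 13, and neither passed the filter on low counts. By edgeR at an adjusted p under 0.05, 15 of the 55 were lower in the knockdown (27.3%) and 5 were higher (9.09%), and 35 did not pass. Over all 18740 genes tested, 33.5% were called in either direction, 16.9% lower and 16.5% higher, so the 36.4% of regulators called was near the general rate while its split leaned to the lower side. The changes were small. The median log2 fold change of the 55 was −0.063, beside −0.003 over all genes, and the median absolute value was 0.136 beside 0.247. Just 4 regulators (7.27%) passed with an absolute log2 fold change of at least 0.5, namely SRSF8, HNRNPM, HNRNPA3 and SRRM1, beside 15.1% of all genes. The libraries of the groups did not overlap for 27 of the 55 (49.1%), where the figure for all genes was 47.4%. These figures for all genes are not matched to the regulators in expression. A mean of at least 10 CPM was reached by 54 of the 55, whereas the 18740 include genes at lower counts. With a minimum of 1 CPM in 3 libraries, 13810 genes were tested, of which 20.6% were lower and 20.5% higher. The median SD of log2 CPM of the regulators was 0.0646 in the controls and 0.0864 in the knockdown.

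**Figure D1:**
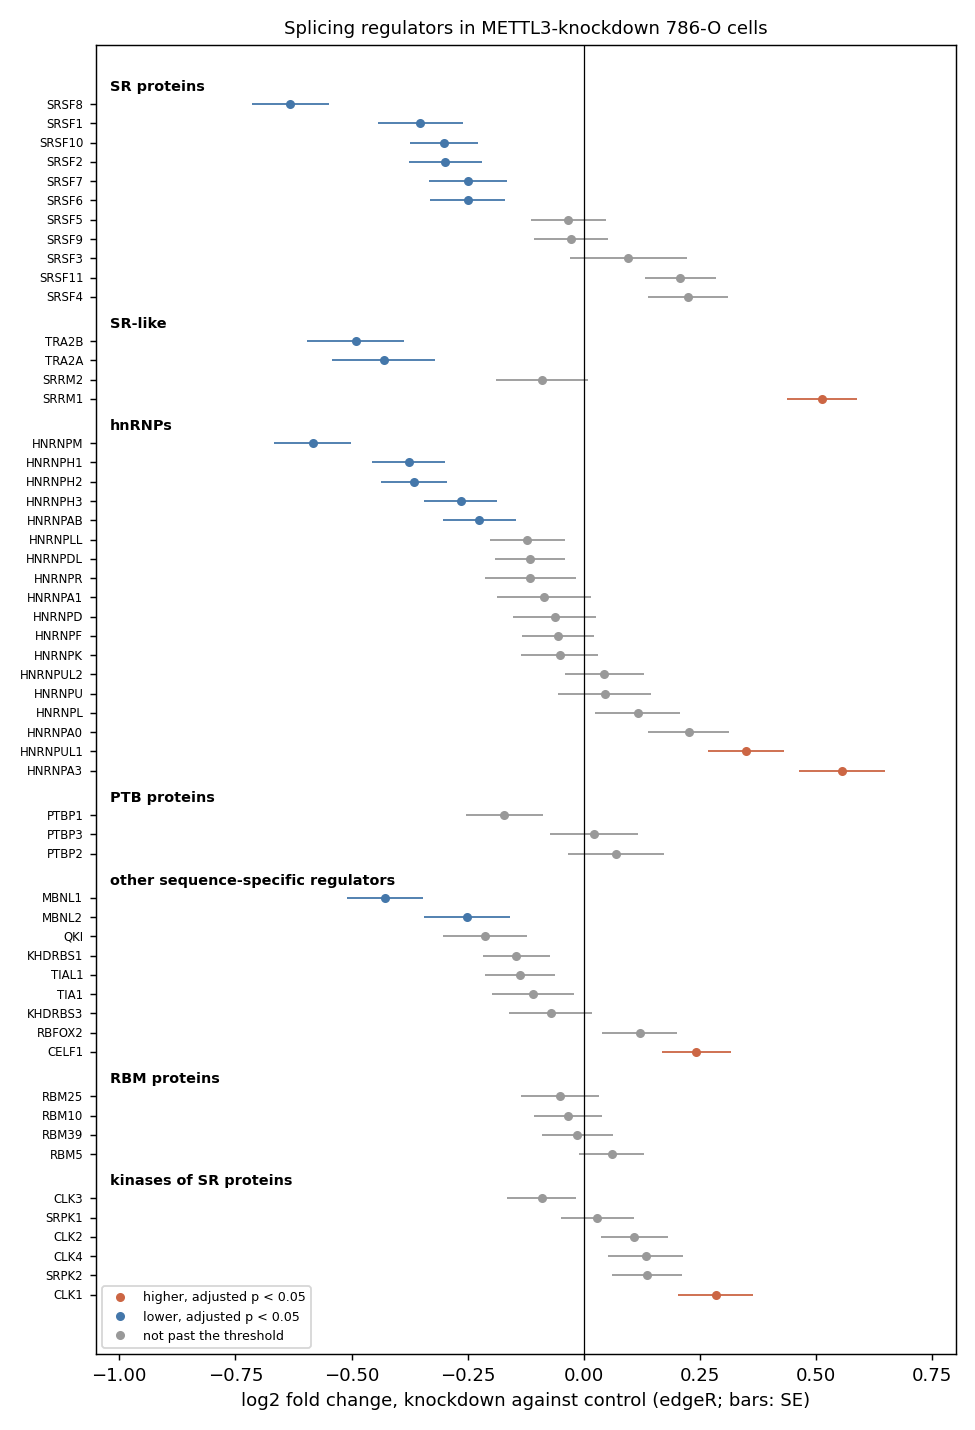
Log2 fold change of each of the 55 tested splicing regulators, knockdown against control (x axis, edgeR), by role group (y axis); points are estimates, bars are 1 SE, and colour marks the call at an adjusted p under 0.05. The 15 lower genes include 6 SR proteins and 5 hnRNPs, SRSF8 lies farthest to the left at −0.63, and HNRNPA3 farthest to the right at 0.56.

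The transcripts of these genes were examined for GGACT, the most frequent core of the sequence that METTL3 methylates, on the strand of the transcript in GENCODE 29. Among the 55 tested regulators, the median was 0.661 GGACT per kilobase, beside 0.948 over 13951 tested protein-coding genes. The lower regulators had 0.497 per kilobase and the 5 higher ones 0.53, with 0.726 among those that did not pass. Over all tested protein-coding genes these medians were 0.935, 0.988 and 0.939. Of the 15 lower regulators, 3 had none in this transcript (20%), namely TRA2A, HNRNPAB and HNRNPM, beside 9.19% of all lower protein-coding genes. A match is a description of letters, and no m6A was measured at any of them. The sequences give the GGACT (capitals) with its flanking bases, 5′ to 3′, in 4 regulators past the threshold, as examples in coding sequence and in 3′ UTR. They lie in the 3′ UTR of SRSF8, 33 bases after the stop codon, in the coding sequence of SRSF10 and TRA2B, and in the 3′ UTR of HNRNPA3.
SRSF8: caacgtgatggaGGACTtgggggaaaagg
SRSF10: gatcaaggtcttGGACTagtcctaagtcc
TRA2B: ctatgatgatcgGGACTactatagcagat
HNRNPA3: ccttcttgttcaGGACTgtcatagccaca
SRSF8 carries a second GGACT farther into its 3′ UTR. SRSF7 and SRRM1, also past the threshold, hold 5 matches each, which are not shown.

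The promoter windows of the regulators, from 250 bases before to 50 after the RefSeq start on GRCh38.p14, were searched on both strands. RefSeq gave windows for 50 of the 57 genes, 83 in all, and HNRNPA1, KHDRBS3, QKI, RBFOX2, RBM39, SRSF2 and TRA2A had no entry. The core of the NRF1 motif, which is GCGC, any 2 bases and GCGC again, was found in 28.9% of these windows and in 8.32% of all 35116 windows of the table. The E-box CACGTG was found in 14.5% and 7.26%, the GC box GGGCGG in 57.8% and 45.0%, the CCAAT box CCAAT in 37.3% and 34.6%, the ETS core CCGGAAG in 9.64% and 10.3%, and the TATA box TATAAA in 10.8% and 11.5%. The cyclic AMP response element, which reads TGACG and then TCA, was found in 0% and 1.85%. Windows of 1 gene overlap, and GC content was higher in the regulators (median 64.0%) than over all windows (58.7%). The 250 bases before the start are given for 3 lower genes and 1 higher gene, with these motifs in capitals, 5′ to 3′, because these genes passed the threshold in opposite directions. HNRNPM lies at chr19:8444725-8444974 (plus strand), SRSF10 at chr1:23980328-23980577 (minus strand), TRA2B at chr3:185938015-185938264 (minus strand) and HNRNPA3 at chr2:177212544-177212793 (plus strand).
HNRNPM: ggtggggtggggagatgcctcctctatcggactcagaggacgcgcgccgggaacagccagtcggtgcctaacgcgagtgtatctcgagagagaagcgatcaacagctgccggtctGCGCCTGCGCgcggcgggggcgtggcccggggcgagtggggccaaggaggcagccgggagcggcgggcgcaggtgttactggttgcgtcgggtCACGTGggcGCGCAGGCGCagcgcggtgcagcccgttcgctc
SRSF10: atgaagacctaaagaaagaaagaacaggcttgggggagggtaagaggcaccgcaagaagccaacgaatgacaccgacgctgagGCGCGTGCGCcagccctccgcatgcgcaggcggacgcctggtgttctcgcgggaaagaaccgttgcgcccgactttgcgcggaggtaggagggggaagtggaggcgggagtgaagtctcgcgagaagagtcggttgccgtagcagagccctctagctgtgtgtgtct
TRA2B: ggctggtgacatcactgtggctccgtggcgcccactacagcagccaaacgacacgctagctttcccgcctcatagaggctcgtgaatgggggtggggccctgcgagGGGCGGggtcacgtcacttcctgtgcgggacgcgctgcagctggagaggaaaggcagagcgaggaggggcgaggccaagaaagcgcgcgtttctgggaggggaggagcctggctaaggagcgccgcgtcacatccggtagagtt
HNRNPA3: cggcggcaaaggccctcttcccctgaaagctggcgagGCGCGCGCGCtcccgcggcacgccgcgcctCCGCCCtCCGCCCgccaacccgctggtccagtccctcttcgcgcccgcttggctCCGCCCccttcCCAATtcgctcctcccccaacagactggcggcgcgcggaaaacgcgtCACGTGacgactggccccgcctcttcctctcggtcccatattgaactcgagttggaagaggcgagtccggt
HNRNPM, which was lower, and HNRNPA3, which was higher, each hold an E-box and at least 1 NRF1 core. SRSF10 holds an NRF1 core and TRA2B a GC box. The windows of SRSF8, which was lower, and SRRM1, which was higher, are not shown and hold neither an NRF1 core nor an E-box.

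Among the SR proteins, 6 of 11 tested were lower in the METTL3 knockdown (54.5%), beside 16.9% of all genes tested. None passed the edgeR test in the other direction, and the median log2 fold change was −0.25. These 6 were SRSF1, SRSF2, SRSF6, SRSF7, SRSF8 and SRSF10. SRSF4 and SRSF11 had positive values with unadjusted p under 0.05. DESeq2 called these 2 higher and limma-voom called SRSF11 alone. The direction was therefore not common to the whole family.

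SRSF8, whose 3′ UTR holds the GGACT shown, is known as an intronless member of the family closely related to SRSF2. The single exon of its reference transcript lies at chr11:95067197-95071224 on the plus strand of GRCh38. SRSF8 measured 35.6, 35.0 and 32.7 CPM in control A, B and C and 22.6, 20.2 and 23.9 CPM in knockdown A, B and C. All knockdown libraries lay below all controls. The group means were 34.4 ± 1.52 and 22.2 ± 1.89 CPM (SD, n = 3 each), which gave a log2 fold change of −0.63 (SE 0.083; edgeR adjusted p = 0.00018). SRSF2 itself, a component of nuclear speckles known for mutations in myeloid malignancy, measured 150.8, 158 and 139.7 CPM in the controls and 124, 115 and 127 CPM in the knockdown. Every knockdown value was below every control value, with a smaller difference of −0.30 (SE 0.079; edgeR adjusted p = 0.0112). The SRSF2 call was lost without control B or knockdown B. The exons of SRSF2 overlap those of MFSD11 on the opposite strand over 1106 bases.

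SRSF10, a splicing regulator that turns into a general repressor when dephosphorylated in heat shock, lies at chr1:23964804-23980927 on the minus strand. It measured 110.0, 112 and 105 CPM in the controls and 85.7, 86.3 and 93.4 CPM in the knockdown. The groups were clearly apart, with means of 109 ± 3.99 and 88.5 ± 4.27 CPM (SD, n = 3 each) and a log2 fold change of −0.30 (SE 0.074; edgeR adjusted p = 0.00777). SRSF6, studied as an oncogene in skin and lung, measured 142, 145 and 140.3 CPM in the controls and 114, 113 and 132 CPM in the knockdown (log2 fold change −0.25, SE 0.081; edgeR adjusted p = 0.0296). SRSF7, which shares with SRSF3 a role in 3′ end choice and export, measured 87.8, 91.0 and 86.1 CPM in the controls and 71.8, 68.2 and 82.9 CPM in the knockdown (log2 fold change −0.25, SE 0.084; edgeR adjusted p = 0.0348). In both SRSF6 and SRSF7, knockdown C lay closest to the controls. Both calls were lost when any single library other than knockdown C was left out.

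SRSF1, the founding member of the family and a proto-oncogene, measured 105, 111 and 100.1 CPM in the controls and 75.1, 78.2 and 94.6 CPM in the knockdown. Its log2 fold change was −0.35 (SE 0.092; edgeR adjusted p = 0.0107), again with knockdown C the nearest to the controls, and the call was lost without control B or knockdown B. This value depends on how reads were divided between neighbouring annotations. Another gene on the same strand, AC015813.2, shares 1890 exon bases with SRSF1 and measured 20.2, 25.0 and 23.4 CPM in the controls and 37.2, 39.1 and 34.3 CPM in the knockdown. It was higher in the knockdown by 0.69 on the log2 scale (edgeR adjusted p = 0.000187). With the counts of both genes summed, the knockdown libraries overlapped the controls and the log2 fold change was −0.10 (edgeR adjusted p = 0.347), so the call for SRSF1 did not survive. The SR count without SRSF1 is 5 lower genes.

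The remaining SR proteins did not pass. SRSF3 measured 127, 132 and 116 CPM in the controls and 120, 113 and 168 CPM in the knockdown, so that its spread came from knockdown C. SRSF4 measured 117, 112 and 104 CPM in the controls and 137, 136 and 115 CPM in the knockdown (log2 difference 0.23, SE 0.086; edgeR adjusted p = 0.0601). SRSF11 had all knockdown libraries above all controls, at 200.4, 211 and 194 CPM against 224, 241 and 233 CPM (log2 difference 0.21, SE 0.076; edgeR adjusted p = 0.0502). SRSF5 and SRSF9 differed by −0.03 each, with overlapping libraries.

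**Figure D2:**
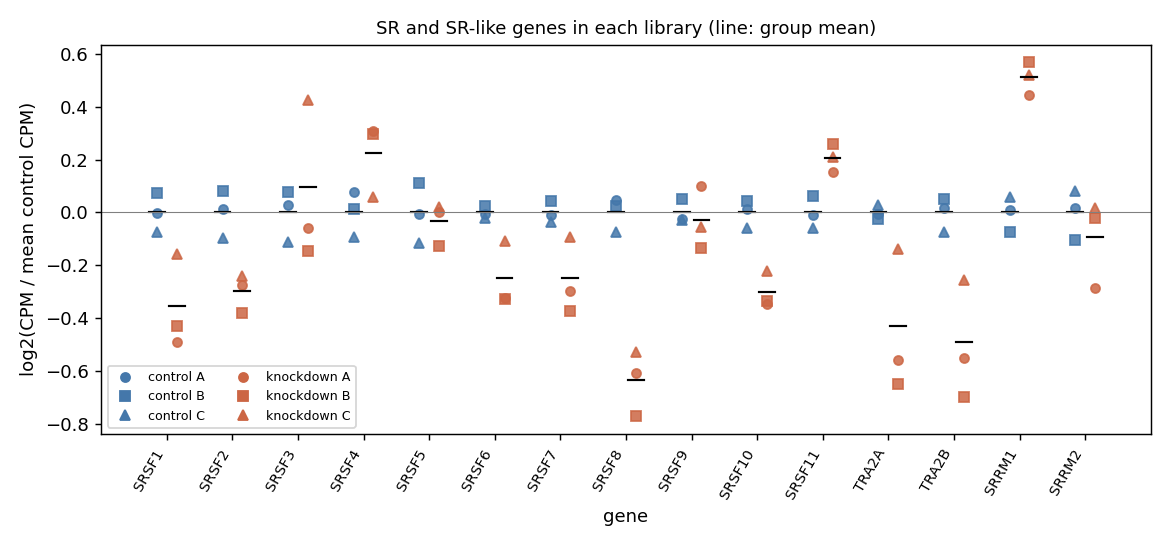
CPM of each SR and SR-like gene in each library, as log2 of the ratio to the control mean (y axis), with genes on the x axis; blue symbols are controls, orange symbols the METTL3 knockdown, the shape gives the library letter and lines are group means. Knockdown C (triangles) is the highest knockdown library for 11 of the 15 genes, so the 3 knockdown libraries of TRA2A, TRA2B and SRSF1 are widely spread.

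Of the 4 SR-like genes, 2 were lower (50%) and 1 was higher (25%), beside 16.9% and 16.5% of all genes tested. Their median absolute log2 fold change was 0.461, beside 0.25 for the SR proteins, although no SR-like gene differed as much as SRSF8. TRA2A and TRA2B, which bind purine-rich enhancers, were both lower in the knockdown, SRRM1 was higher, and SRRM2 did not pass. TRA2B (chr3:185915906-185938136, minus strand) measured 318, 325 and 299 CPM in the controls and 214, 193 and 263 CPM in the knockdown. All knockdown values lay below the controls, B the lowest and C the highest, with means of 314 ± 13.9 and 223 ± 35.8 CPM (SD, n = 3 each). The log2 fold change was −0.49 (SE 0.105; edgeR adjusted p = 0.0034). TRA2A followed the same order at a lower level, with 49.2, 48.5 and 50.3 CPM in the controls and 33.5, 31.5 and 44.8 CPM in the knockdown (log2 fold change −0.43, SE 0.111; edgeR adjusted p = 0.0101). That call was lost without knockdown B and on log2(FPKM + 1) with no filter.

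SRRM1 (chr1:24631716-24673267, plus strand), a large coactivator that links SR proteins to the spliceosome and the exon junction complex, measured 96.0, 90.5 and 99.2 CPM in the controls and 129.7, 141 and 137 CPM in the knockdown. The lowest knockdown library lay above the highest control. The means were 95.3 ± 4.40 and 136 ± 5.84 CPM (SD, n = 3 each), an increase of 42.7% and a log2 fold change of 0.51 (SE 0.075; edgeR adjusted p = 0.00035). Its partner SRRM2, a scaffold of nuclear speckles, measured 757, 697 and 792 CPM in the controls and 613, 737 and 757 CPM in the knockdown, with overlapping groups (log2 difference −0.09; edgeR adjusted p = 0.509).

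Within each group, 1 library was often the highest for these genes. Control B was the highest control for 9 of 11 SR proteins and for 10 of 15 SR and SR-like genes together, beside 4084 of 13733 over all genes compared. Knockdown C was the highest knockdown library for 8 of 11 SR proteins and for 11 of 15 SR and SR-like genes together, beside 4845 of the same 13733. Of the 15 lower regulators, 12 had knockdown C as their highest knockdown library. For the hnRNPs the order of the knockdown libraries was not shared, with knockdown A highest in 7, B in 7 and C in 4 of 18 genes. Their controls did share an order, as control A was the highest control for 13 of the 18, beside 5002 of 13733 over all genes compared. Without knockdown C, 15 regulators were lower and 7 higher, where 17.4% of all genes tested were lower and 17.1% higher. Without knockdown B, 7 were lower and 4 higher, and the calls over all genes dropped as well, to 10.2% lower and 10.7% higher.

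Among the hnRNPs, 5 of 18 were lower in the knockdown (27.8%) and 2 were higher (11.1%), beside 16.9% and 16.5% of all genes tested. Their median log2 fold change was −0.074. The lower genes were HNRNPM, HNRNPAB and all 3 tested members named HNRNPH, and the higher genes were HNRNPA3 and HNRNPUL1. The abundant HNRNPA1, HNRNPK, HNRNPU and HNRNPL did not pass.

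HNRNPM (chr19:8444767-8489114, plus strand), a repressor and activator of exons studied in the epithelial to mesenchymal transition, measured 333, 288 and 326 CPM in the controls and 215, 208 and 209 CPM in the knockdown. The knockdown libraries sat close together and far below the lowest control. The means were 316 ± 24.4 and 211 ± 3.64 CPM (SD, n = 3 each), a decrease with a log2 fold change of −0.58 (SE 0.082; edgeR adjusted p = 0.000269). HNRNPA3 (chr2:177212563-177223958, plus strand), a relative of HNRNPA1 known for binding telomeric and trafficking sequences, moved in the opposite direction. It measured 75.8, 78.8 and 63.0 CPM in the controls and 107, 114 and 98.9 CPM in the knockdown, with no overlap. The means were 72.5 ± 8.37 and 107 ± 7.42 CPM (SD, n = 3 each), an increase of 47.0% and a log2 fold change of 0.56 (SE 0.093; edgeR adjusted p = 0.000785). The table holds 16 pseudogene rows named after HNRNPA3, with 0.598% as many counts as the gene itself, and reads from near-identical copies can be divided unevenly. On log2(FPKM + 1) with no filter, HNRNPA3 just missed the threshold.

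The H and F proteins bind runs of guanines. HNRNPH1 measured 363, 346 and 373 CPM in the controls and 273, 272 and 288 CPM in the knockdown (log2 fold change −0.38, SE 0.078; edgeR adjusted p = 0.00276). HNRNPH2, its close paralog on the X chromosome, measured 104, 101 and 99.5 CPM in the controls and 78.7, 76.0 and 81.6 CPM in the knockdown (log2 fold change −0.37, SE 0.071; edgeR adjusted p = 0.002). HNRNPH3, which has fewer RNA recognition motifs, measured 262, 246 and 266 CPM in the controls and 227, 209 and 208 CPM in the knockdown (log2 fold change −0.27, SE 0.078; edgeR adjusted p = 0.0197). HNRNPH3 lost its call without control A, control C or knockdown B. In all of these H genes the highest knockdown library was below the lowest control. HNRNPF, the related F protein, did not pass and its groups overlapped, with 283, 263 and 263 CPM in the controls and 262, 268 and 249 CPM in the knockdown (log2 difference −0.06; edgeR adjusted p = 0.613).

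HNRNPAB, a relative of HNRNPD, measured 239, 234 and 224 CPM in the controls and 211, 193 and 190.3 CPM in the knockdown (log2 fold change −0.23, SE 0.078; edgeR adjusted p = 0.0388), and it lost its call when any library but knockdown A was left out. HNRNPUL1, a nuclear protein linked to DNA end resection, measured 138, 119.7 and 129 CPM in the controls and 158, 175 and 160.3 CPM in the knockdown (log2 fold change 0.35, SE 0.081; edgeR adjusted p = 0.00578). Exons of HNRNPUL1 overlap those of TGFB1 on the opposite strand over 215 bases, and TGFB1 was higher by 0.72 on the log2 scale (edgeR adjusted p = 0.000327). The strand setting of the counting is unknown here, and the part of TGFB1 reads in HNRNPUL1 was not tested. On log2(FPKM + 1) the rise of HNRNPUL1 did not pass. Of the 11 hnRNPs that did not pass, HNRNPA0 had the largest difference at 0.23 (SE 0.087; edgeR adjusted p = 0.0595). It passed as higher in 6 alternatives, DESeq2 among them, and the others lay between −0.12 and 0.12. HNRNPA1, which carries 74 pseudogene rows with 1.49% as many counts, measured 347, 326 and 274 CPM in the controls and 318, 309 and 266 CPM in the knockdown, with control C and knockdown C the low libraries.

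**Figure D3:**
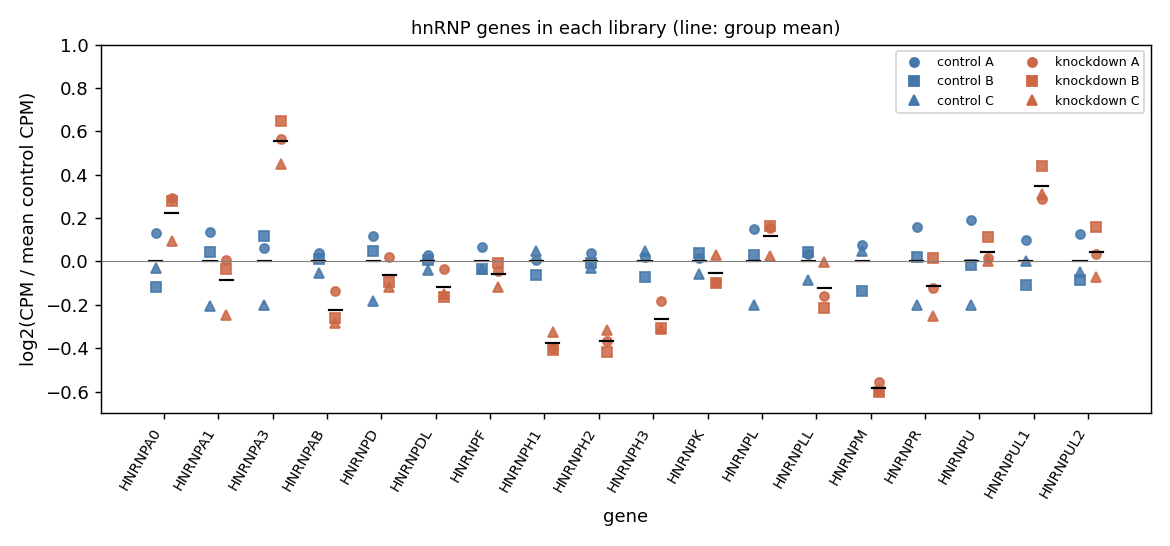
CPM of each hnRNP gene in each library, as log2 of the ratio to the control mean (y axis), with genes on the x axis; symbols and lines are as for the SR genes. HNRNPM, HNRNPH1, HNRNPH2, HNRNPH3 and HNRNPAB lie below the controls in every knockdown library and HNRNPA3 and HNRNPUL1 above, and the controls of HNRNPU, HNRNPL and HNRNPA1 are spread more widely than their group means differ.

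The 3 PTB genes did not pass in either direction by edgeR, DESeq2 or limma-voom, and 0 had an unadjusted p under 0.05. PTBP1, the general repressor of neuronal and muscle exons, had the highest control level per transcript length of all the regulators (414 FPKM). It measured 682, 640.0 and 664 CPM in the controls and 565, 578 and 621 CPM in the knockdown. The groups did not overlap, and the log2 difference of −0.17 (SE 0.083) had an edgeR adjusted p of 0.128. PTBP1 passed as lower with library size alone (log2 fold change −0.28; edgeR adjusted p = 0.0158) and in the 3 limma fits on FPKM, for example at −0.35 on log2(FPKM + 1) (limma adjusted p = 0.00476). PTBP2, the neuronal paralog, was the lowest of the tested regulators at 7.33 FPKM in the controls, with 8.61, 10.1 and 8.37 CPM in the controls and 8.82, 9.24 and 10.3 CPM in the knockdown (log2 difference 0.07; edgeR adjusted p = 0.633). PTBP3 differed by 0.02 with overlapping groups.

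Among the other sequence-specific regulators, MBNL1 and MBNL2 were lower in the knockdown and CELF1 was higher, of 9 tested. The share called was 33.3%, beside 33.5% of all genes tested. MBNL proteins and CELF1 are known as antagonists on shared developmental exons. MBNL1 (chr3:152243828-152465780, plus strand) measured 91.3, 96.9 and 98.8 CPM in the controls and 64.6, 72.7 and 76.0 CPM in the knockdown, with no overlap. The means were 95.7 ± 3.87 and 71.1 ± 5.87 CPM (SD, n = 3 each), which gave a log2 fold change of −0.43 (SE 0.081; edgeR adjusted p = 0.00163). MBNL2 measured 100.4, 109 and 102 CPM in the controls and 75.9, 88.1 and 97.7 CPM in the knockdown, where knockdown A and C were far apart. Its log2 fold change of −0.25 (SE 0.092; edgeR adjusted p = 0.0494) lay at the threshold, and leaving out any library but knockdown C removed the call.

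CELF1 (chr11:47465933-47565569, minus strand) measured 71.0, 68.9 and 68.9 CPM in the controls and 77.1, 86.9 and 83.0 CPM in the knockdown, with means of 69.6 ± 1.22 and 82.3 ± 4.95 CPM (SD, n = 3 each). The log2 fold change was 0.24 (SE 0.074; edgeR adjusted p = 0.0232). The deposited FPKM gave the opposite direction, with means of 19.1 in the controls and 18.0 in the knockdown and a log2 difference of −0.08 on log2(FPKM + 1). Scaling by library size alone removed the call with the direction unchanged (log2 difference 0.13), as did leaving out any control or knockdown B. Its exons overlap those of NDUFS3 and PTPMT1 on the opposite strand, which were lower by −0.28 and −0.37. The other 6 did not pass. QKI, a STAR-family RNA-binding protein that also promotes circular RNA formation, had all knockdown libraries below the controls, at 151, 163 and 156 CPM against 119, 137 and 150.0 CPM (log2 difference −0.21; edgeR adjusted p = 0.0824). KHDRBS1 and TIAL1 had non-overlapping groups as well, with log2 differences of −0.15 and −0.14. RBFOX2, KHDRBS3 and TIA1 overlapped between the groups, at 0.12, −0.07 and −0.11.

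The 4 RBM proteins showed the smallest differences, between −0.05 and 0.06 on the log2 scale, and 0 passed by edgeR, DESeq2 or limma-voom or had an unadjusted p under 0.05. RBM5, a tumour suppressor that acts on apoptotic exons, measured 77.5, 73.3 and 72.3 CPM in the controls and 77.8, 76.8 and 78.0 CPM in the knockdown (edgeR adjusted p = 0.542). RBM25, which acts with the U1 particle, measured 77.0, 71.2 and 65.1 CPM in the controls and 69.9, 72.2 and 63.6 CPM in the knockdown (edgeR adjusted p = 0.668). RBM10 and RBM39 differed by −0.03 and −0.01. All groups in this set overlapped.

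Of the 6 kinases, CLK1 was higher and none was lower by edgeR, DESeq2 or limma-voom, and 0 had a negative value with an unadjusted p under 0.05. The share called by edgeR was 16.7%, beside 33.5% of all genes tested. CLK1 phosphorylates SR proteins in the nucleus, and its own splicing is temperature dependent. It measured 75.4, 87.7 and 75.0 CPM in the controls and 98.9, 96.5 and 94.5 CPM in the knockdown, with means of 79.4 ± 7.27 and 96.6 ± 2.23 CPM (SD, n = 3 each). The knockdown libraries lay above the controls, of which B was the nearest. The log2 fold change was 0.28 (SE 0.081; edgeR adjusted p = 0.0163), and it did not pass with scaling by library size alone or on the FPKM values, nor without control A or control C. SRPK2, a cytoplasmic kinase that promotes nuclear import of SR proteins, measured 66.4, 62.0 and 65.1 CPM in the controls and 66.4, 74.7 and 71.5 CPM in the knockdown, with groups that just overlapped (log2 difference 0.14; edgeR adjusted p = 0.183). SRPK1 differed by 0.03, CLK2 by 0.11, CLK3 by −0.09 and CLK4 by 0.13.

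The ratio of related genes within a library shows unequal change without any scaling between libraries, and not the direction of either gene. Of 21 pairs of related regulators, 8 had fold changes of opposite sign, 0 had both genes past the edgeR threshold in opposite directions, and 4 had both lower. Among these pairs, the log2 count ratio of HNRNPA1 to HNRNPA3 moved most, from 2.12 ± 0.074 in the controls to 1.48 ± 0.076 in the knockdown (SD, n = 3 each), with no overlap. The ratio of SRSF4 to SRSF6 went from −0.36 ± 0.077 to 0.11 ± 0.269, with knockdown C the nearest to the controls. The ratio of SRSF2 to SRSF8, both lower, went from 2.12 ± 0.051 to 2.46 ± 0.052. By contrast, the ratio of HNRNPH1 to HNRNPH2 was 1.83 ± 0.07 and 1.82 ± 0.022, and that of TRA2A to TRA2B −2.67 ± 0.091 and −2.62 ± 0.062. The libraries of the groups overlapped in both of these pairs, whose members were all lower. With 3 libraries against 3 an exact permutation test cannot give a p below 0.1, so the ratios are descriptions.

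**Figure D4:**
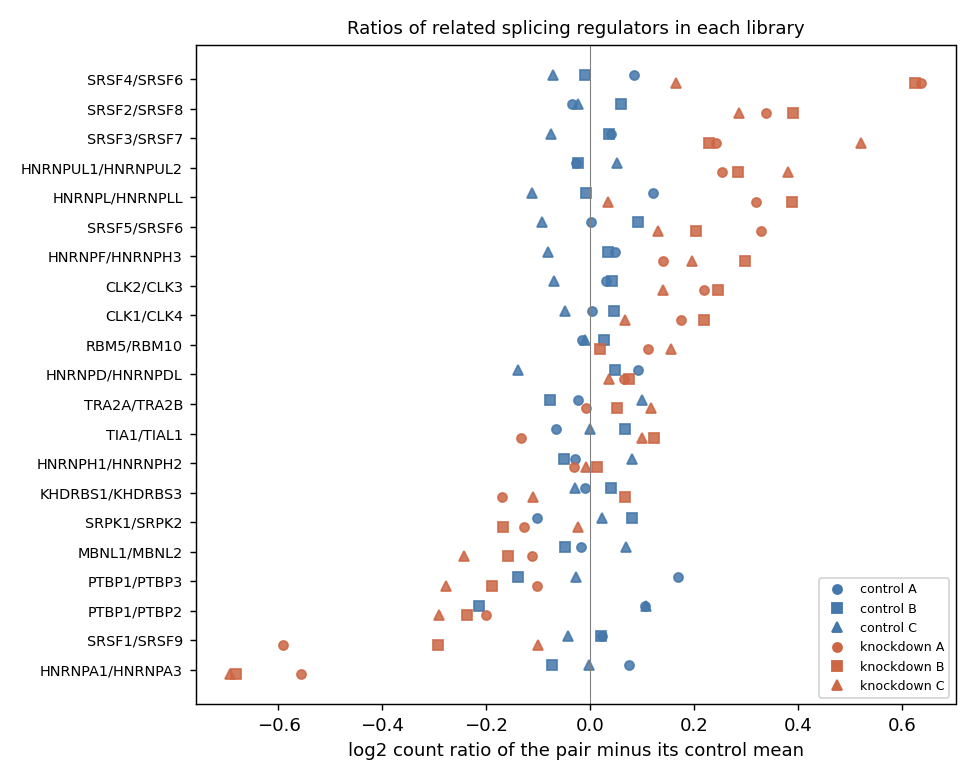
Log2 count ratio of each of 21 pairs of related regulators in each library, minus the mean of that ratio in the controls (x axis), with pairs on the y axis; colour marks the group and shape the library letter. HNRNPA1/HNRNPA3 lies farthest to the left of 0, SRSF4/SRSF6 farthest to the right, and HNRNPH1/HNRNPH2 and TRA2A/TRA2B stay around 0.

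Annotation also differs between these genes and others. An annotated transcript subject to nonsense-mediated decay was present in 40 of the 55 tested regulators (72.7%) and in 42.5% of 13951 tested protein-coding genes. All 11 SR proteins and all 4 SR-like genes had one, as did 11 of 18 hnRNPs. For SRSF8, whose reference transcript has 1 exon, it was 1 of 2 annotated transcripts. Among the lower regulators the share was 73.3%, among the 5 higher ones 60%, and among those that did not pass 74.3%. The regulators also had more exons, with a median of 12 beside 9, and the part of exon number in these shares was not tested. Gene counts pool productive and decay-prone transcripts.

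Splicing genes outside these 57 were read from the same fit, in which 16.9% of all genes tested were lower and 16.5% higher. Of 29 tested SR-related and nuclear speckle proteins, 12 were lower (41.4%) and 0 higher by edgeR, with 1 at a positive value and an unadjusted p under 0.05, and the median log2 fold change was −0.158. The smallest p-values belonged to CLASRP, a CLK-binding protein, at −0.41 (edgeR adjusted p = 0.00136), BCLAF1 at −0.45 (edgeR adjusted p = 0.00195) and LUC7L, a relative of a U1 component, at −0.40 (edgeR adjusted p = 0.00325). Of 20 tested other hnRNPs and related proteins, 5 were lower (25%) and 3 higher (15%), with a median of −0.011. SFPQ fell with a log2 fold change of −0.70 (SE 0.079; edgeR adjusted p = 7.96e-05), while NONO, its partner in paraspeckles, rose by 0.46 (SE 0.097; edgeR adjusted p = 0.00315), and PCBP2, a poly(C)-binding protein, rose by 0.41 (SE 0.082; edgeR adjusted p = 0.00247). HNRNPA2B1, described as an m6A reader, fell with a log2 fold change of −0.35 (edgeR adjusted p = 0.00508), and HNRNPC, whose sites m6A is known to expose, differed by 0.04 (edgeR adjusted p = 0.726).

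Of 25 tested other sequence-specific regulators, 7 were lower (28%) and 2 higher (8%), with a median of −0.001. RBFOX3, a neuronal member of the RBFOX family, was higher by 0.59 (SE 0.08; edgeR adjusted p = 0.000204) at 26.2 to 39.9 FPKM, although the neuronal genes SYP and NOVA1 were near 0. RBM42 was lower at −0.47 (edgeR adjusted p = 0.000654) and RBM4 at −0.43 (edgeR adjusted p = 0.00141). Of 24 kinases, phosphatases and import factors of SR proteins, 6 were lower (25%) and 1 higher (4.17%), with a median of −0.099. DYRK3, a kinase that dissolves nuclear condensates, was higher by 0.50 (SE 0.07; edgeR adjusted p = 0.000265), CDK11A was lower at −0.43 (edgeR adjusted p = 0.00137) and AKAP17A was lower at −0.33 (edgeR adjusted p = 0.0048).

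Of the 20 regulators called, 8 passed an adjusted p of 0.05 in every alternative run, namely SRSF8, SRSF10, TRA2B, SRRM1, HNRNPH1, HNRNPH2, HNRNPM and MBNL1. The other 12 lost the call in at least 1. Of the 35 that did not pass, 10 did so in at least 1 alternative. SRSF4, SRSF11 and HNRNPA0 then passed as higher, and HNRNPDL, HNRNPF, PTBP1, QKI, KHDRBS1, TIAL1 and CLK3 as lower. Exons of 10 of the 20 overlap another annotated gene, as do those of uncalled regulators such as SRSF9 and RBM10. The neighbours of called genes ranged widely in counts over all libraries, for example AC136469.2 at HNRNPM with 9 and TGFB1 at HNRNPUL1 with 141918.

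**Figure D5:**
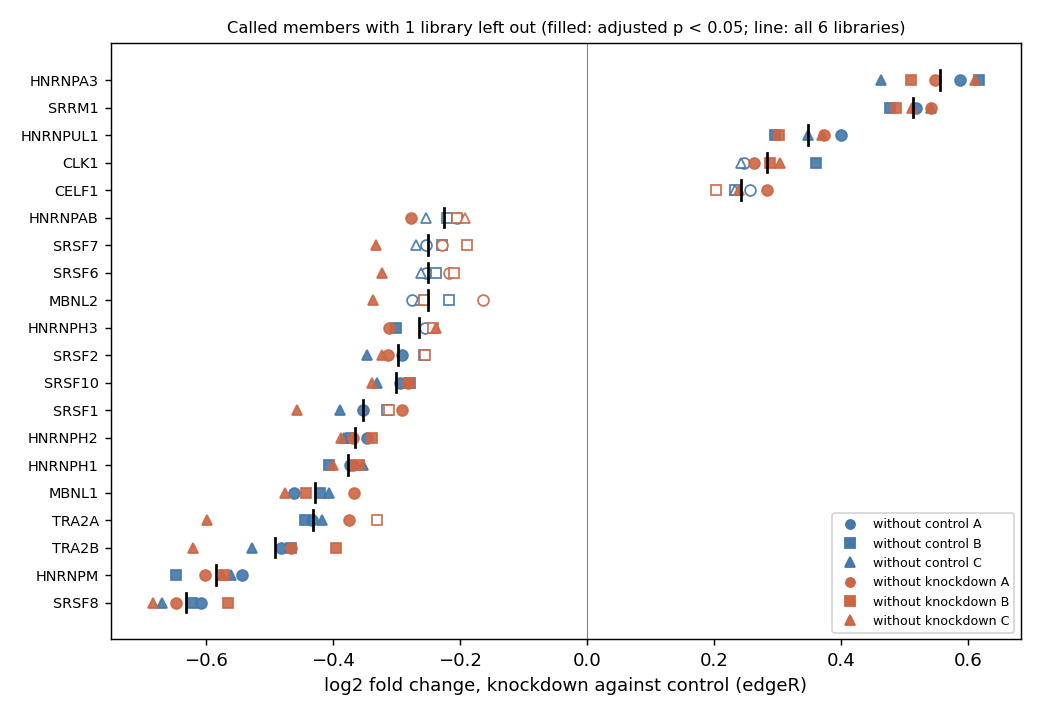
Log2 fold change of the 20 called regulators (x axis, edgeR) with each library left out in turn (y axis, genes); filled symbols passed an adjusted p of 0.05, open symbols did not, and black lines are the fit with all 6 libraries. SRSF8, HNRNPM, TRA2B, MBNL1, HNRNPH1, HNRNPH2, SRSF10, SRRM1, HNRNPA3 and HNRNPUL1 stay filled throughout, while MBNL2, SRSF6, SRSF7, HNRNPAB and CELF1 are mostly open.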

How the data were processed

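Total RNA of 786-O cells, depleted of ribosomal RNA, was sequenced from both fragment ends in 6 libraries, per the labels' protocols. STAR 2.7.10b, Salmon and GRCh38 appear in the submitters' processing notes, without a role for each. The annotation release and the strand setting of the counting are not named in any source used here. The authors deposited whole-number counts and FPKM values (fragments scaled by transcript length and library total) for 61860 genes. The columns bearing a construct number that no label explains were taken as the METTL3 shRNA group by elimination, and METTL3 checks this. No label links a column letter to a replicate number.

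The counts were tested with edgeR 4.0.16 in R 4.3.3 (filterByExpr, TMM, quasi-likelihood test), and p-values were adjusted by Benjamini-Hochberg over 18740 genes with a threshold of 0.05. Standard errors come from the F statistic. CPM used library totals adjusted by TMM. FPKM were used for levels and in limma 3.58.1 on log2(FPKM + 1) or log2(FPKM + 0.1) with a minimum of 0.5 FPKM in 3 libraries. Further alternatives were DESeq2 1.42.0, its type of size factors in edgeR, limma-voom, library-size scaling, no filter, a minimum of 1 CPM in 3 libraries, the column letter as a block, an adjusted p of 0.01, leaving out mitochondrial transcripts and leaving out each library. Summing SRSF1 with its overlapping neighbour, and some counts under the alternatives, were added after seeing the data. The procedure was tested on simulated data. Replicates were more different than counting alone gives (chi-square of 16.5 to 62.8 for each degree of freedom), none was merged, and the spread between libraries limits the precision.

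The genes, roles and lists were chosen with earlier results of these data known. METTL3 and all 57 regulators are accounted for. Values in every library were given for regulators past the threshold with an absolute log2 fold change of at least 0.5 and for the 2 with the smallest p in each role, and other regulators with such values were chosen after their values were seen. Of each list outside the regulators, up to 3 genes with the smallest p were named, and HNRNPC and HNRNPA2B1. Gene models came from GENCODE 29, in which 58308 identifiers were found. Some marker genes are not reported here.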

Additional observations from a re-analysis of the deposited data

How the results depend on the processing

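With no scaling but library size, the median over all genes went from −0.003 to −0.113 (log2) and their calls from 3099 higher and 3171 lower to 1985 and 4727 (10.6% and 25.2%, beside 16.5% and 16.9%). The 5 higher regulators became 3 with library size alone, 8 with DESeq2, 8 with a minimum of 1 CPM, 2 on log2(FPKM + 1), 2 on log2(FPKM + 0.1), 1 on log2(FPKM + 1) with no filter, 3 at an adjusted p of 0.01 and 3 to 7 with 1 library left out. Over all genes tested, the higher share was 16.6% with DESeq2, 20.5% with that minimum and 10.55% on log2(FPKM + 1). It was 10.4% on log2(FPKM + 0.1), 3.28% without the FPKM filter and 10.7% to 17.1% with 1 library left out. The 15 lower regulators became 14 with the counts of SRSF1 and AC015813.2 summed, 7 at 0.01 and 7 to 15 with 1 library left out, and 20 with library size alone. On log2(FPKM + 1) and log2(FPKM + 0.1) all 15 stayed lower, and HNRNPDL, PTBP1, QKI, KHDRBS1 and CLK3 passed as lower too. Over all genes, 24.8% and 24.7% were lower there, and 10.2% to 17.4% with 1 library left out. Without the FPKM filter, TRA2A and MBNL2 lost the call and HNRNPDL, HNRNPF, PTBP1 and KHDRBS1 passed, where 7.165% of all genes were lower. The 6 lower SR proteins became 2 to 6 with 1 library left out, the low value being reached without control B or knockdown B, 2 at an adjusted p of 0.01, 5 with that sum, and were 6 under the other alternatives run on that count. The number of higher SR proteins, 0, became 1 with DESeq2-type size factors, limma-voom, no filter or without mitochondrial transcripts, 2 with DESeq2 or the minimum of 1 CPM, and 0 to 1 with 1 library left out. The 5 lower hnRNPs became 3 to 5 with 1 library left out, with 3 without control A, control C or knockdown B, and 3 at an adjusted p of 0.01. The 2 higher hnRNPs became 1 with either pseudocount on FPKM and 0 without the FPKM filter, and 3 with DESeq2, no filter, the minimum of 1 CPM or the block, and without control A or knockdown C.

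Of the other lists, library size alone gave 8 lower hnRNP-related genes in place of 5, 19 lower SR-related and speckle genes in place of 12, 11 lower kinases, phosphatases and import factors in place of 6, and 1 higher sequence-specific regulator in place of 2. With 1 library left out, these counts ran from 3 to 6, from 7 to 12, from 3 to 7 and from 1 to 2, and the count of higher SR-related genes from 0 to 1. CELF1 reversed on FPKM, to −0.077, −0.081 and −0.077 on log2(FPKM + 1), log2(FPKM + 0.1) and log2(FPKM + 1) without the filter. The cause of these shifts was not tested. METTL3 ran from −1.83 to −1.73 with 1 library left out.

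Same-lettered libraries of the groups had correlations of their deviations of 0.077, −0.079 and 0.314. Those of differently lettered libraries ran from −0.319 to 0.286. With so few libraries in a group, these values cannot show whether same-lettered libraries were made together, and no label states it. With the letter as a replicate block, 8 regulators were higher, 16 lower and 2 SR proteins higher, and over all genes 3421 were higher and 3564 lower.

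Calls lost with 1 library left out numbered 7 without control A, 7 without control B, 7 without control C, 3 without knockdown A, 9 without knockdown B and 1 without knockdown C. Over the whole table replicates differed more than counting alone gives, but this was not computed for each regulator. The spread of some was small, as for RBM5 in the knockdown (SD of log2 CPM 0.013), where counting error may matter. SRSF12 and MBNL3 had too few counts for their levels to be compared.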
